A study of Mus musculus with 16 samples.

Results

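10 genes of insulin signalling and glucose transport were followed through the chromatin data of differentiating 3T3-L1 cells: Insr, Igf1r, Igf1, Irs1, Irs2, Pik3r1, Akt2, Foxo1, Slc2a1 and Slc2a4. They were picked by name as genes of the pathway, by a rule that uses no measured value, and are 10 of the 22367 protein-coding genes of the mm9 annotation. Each gene was given a window of its gene body plus 50 kb on each side, and every island whose interval overlapped that window was taken from all 16 lists. An island is a stretch of enriched sequencing reads called by the SICER program in 200 bp steps, and the measure used for most comparisons is cover, the length of a window that lies inside islands. The lists hold positions and a score but no reads per gene, so cover says how far a mark or protein was spread and not how strong it was.

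3T3-L1 is a mouse preadipocyte line that becomes fat cells when confluent cultures receive a cocktail of isobutylmethylxanthine, dexamethasone and insulin, so the differentiation medium of every later time point itself contains insulin. The study asks how SETD5, a SET domain protein, bears on active enhancer chromatin early in this process. Acetylation of histone H3 at lysine 27 (H3K27ac), a mark of active promoters and enhancers, was mapped in cells carrying an empty retroviral vector and in cells carrying a retrovirus for V5-tagged SETD5, before the cocktail (0 h) and 48 h after it, in 2 libraries lettered A and B per group. SETD5-V5 itself was mapped with the V5 tag at 0 and 6 h (2 libraries each), and H3K4me1, found at enhancers whether poised or in use, at 0 and 48 h and endogenous SETD5 at 0 and 6 h were mapped in 1 library each.

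The SETD5 cells are a selected stable line in which a weakened viral promoter drives the transgene, so their 0 h state already carries SETD5, and no source says that libraries A and B came from separately derived lines. The study's text calls the 2 libraries of H3K27ac and of SETD5-V5 biological replicates without saying what was repeated, so p-values measure the spread between these libraries. The labels of the H3K4me1 libraries name the SETD5-V5 virus while the study's text treats those cells as not transduced, so their vector is uncertain here. The labels of the SETD5-V5 libraries of letter A give no virus in one field although their titles name SETD5-V5. The Setd5 gene body held 2 to 3 H3K27ac islands in the empty vector libraries and 9 to 12 in the SETD5 libraries.

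The H3K27ac lists held 31292 to 39949 islands covering 103 to 122 Mb. The SETD5-V5 lists were less even: 16054 and 6666 islands at 0 h, and 35573 and 27220 at 6 h. Start sites of preadipocyte fibroblast markers (Pdgfra, Pdgfrb, Thy1, Col1a1, Col1a2, Cd34, Dlk1) carried H3K27ac at 6 to 7 of 7 genes in every library. Adipocyte markers carried it at 2 of 7 start sites (Pparg, Cebpa) at 0 h, at 6 of 7 in empty vector cells at 48 h and at 5 of 7 in SETD5 cells at 48 h, Adipoq being the gene that differed and Lipe having none in any library. None of 6 markers of other cell types had an island. In such bulk cultures fewer differentiating cells and less of a mark per cell cannot be told apart, and the part of this marker difference in the results was not tested.

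Insulin binds the insulin receptor, a tyrosine kinase encoded by Insr, and insulin-like growth factors act mainly through its relative encoded by Igf1r. Both phosphorylate the docking proteins IRS1 and IRS2, which recruit phosphoinositide 3-kinase through its regulatory subunit p85α, the main product of Pik3r1. The kinase AKT2 then brings the glucose transporter GLUT4, encoded by Slc2a4, to the cell surface and keeps the transcription factor FOXO1 out of the nucleus. GLUT4 is a hallmark of mature adipocytes and muscle, whereas GLUT1, encoded by Slc2a1, is the basal transporter of most growing cells.

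The 10 windows differ in how much of them belongs to other genes. Insr (chr8:3150922-3279617, minus strand), Irs2 (chr8:10986980-11008458, minus), Igf1 (chr10:87321010-87399792, plus) and Foxo1 (chr3:52072259-52154031, plus) have no other protein-coding gene within 50 kb. Igf1r (chr7:75097713-75371484, plus) and Pik3r1 (chr13:102450716-102538172, minus) have 1 neighbour, and Irs1 (chr1:82229676-82287991, minus) and Slc2a1 (chr4:118781316-118809935, plus) have 2. Akt2 (chr7:28376571-28425845, plus) has 5 and Slc2a4 (chr11:69756045-69761690, minus) has 11, so values of those windows are given with this in view.

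The sequences below come from upstream windows and from stretches that gained H3K27ac over 48 h in empty vector cells. The first set holds the 300 bases just upstream of 4 annotated starts in mm9, read along the gene's own strand: Slc2a4, the only one of the 10 genes whose start site had no H3K27ac island at 0 h and gained one, Irs2, whose start-site island lengthened most on average among the 10 in empty vector cells, and Akt2 and Foxo1, which hold a searched motif, printed in capitals (TTGCNNAA of C/EBP factors in Akt2, TGTTTAC of forkhead factors in Foxo1).
Slc2a4, chr11:69761691-69761990, minus strand: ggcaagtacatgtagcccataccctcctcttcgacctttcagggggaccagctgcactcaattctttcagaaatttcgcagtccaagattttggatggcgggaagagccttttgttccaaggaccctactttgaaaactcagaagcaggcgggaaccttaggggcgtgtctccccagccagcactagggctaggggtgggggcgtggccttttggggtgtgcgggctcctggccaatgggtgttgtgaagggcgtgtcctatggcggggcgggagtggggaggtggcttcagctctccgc
Irs2, chr8:11008459-11008758, minus strand: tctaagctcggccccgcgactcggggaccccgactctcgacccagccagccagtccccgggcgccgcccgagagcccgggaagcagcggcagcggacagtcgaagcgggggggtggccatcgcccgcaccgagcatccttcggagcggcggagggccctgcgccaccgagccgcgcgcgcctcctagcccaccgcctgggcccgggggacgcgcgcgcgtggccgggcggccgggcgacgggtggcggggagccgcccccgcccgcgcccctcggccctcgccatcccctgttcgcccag
Akt2, chr7:28376271-28376570, plus strand: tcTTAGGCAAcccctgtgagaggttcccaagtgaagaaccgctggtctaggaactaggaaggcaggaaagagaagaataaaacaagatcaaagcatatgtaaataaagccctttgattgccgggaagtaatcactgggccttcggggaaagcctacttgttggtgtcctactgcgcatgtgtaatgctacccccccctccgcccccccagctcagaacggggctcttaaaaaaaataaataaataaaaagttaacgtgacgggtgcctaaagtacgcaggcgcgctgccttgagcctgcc
Foxo1, chr3:52071959-52072258, plus strand: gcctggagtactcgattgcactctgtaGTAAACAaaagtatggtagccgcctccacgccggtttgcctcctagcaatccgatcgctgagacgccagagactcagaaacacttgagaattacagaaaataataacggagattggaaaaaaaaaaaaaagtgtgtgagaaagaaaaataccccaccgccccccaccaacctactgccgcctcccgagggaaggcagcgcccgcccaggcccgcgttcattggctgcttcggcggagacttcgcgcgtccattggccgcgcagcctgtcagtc

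The second set holds the centre of a stretch inside each of 5 genes that lay in H3K27ac islands of libraries A and B of empty vector cells at 48 h but of no library at 0 h. The stretch was the longest one of the window, with those also covered in both SETD5-V5 6 h lists preferred. The 300 bases printed are intronic at Irs2, Insr, Igf1r and Akt2 and overlap an exon at Pik3r1.
Irs2, chr8:10990751-10991050, plus strand: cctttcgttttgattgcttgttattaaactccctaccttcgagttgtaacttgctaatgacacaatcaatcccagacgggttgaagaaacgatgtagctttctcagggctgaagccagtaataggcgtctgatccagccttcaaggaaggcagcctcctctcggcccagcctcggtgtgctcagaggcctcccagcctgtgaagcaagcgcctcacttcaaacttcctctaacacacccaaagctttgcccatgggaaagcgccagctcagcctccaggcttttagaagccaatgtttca
Insr, chr8:3212151-3212450, plus strand: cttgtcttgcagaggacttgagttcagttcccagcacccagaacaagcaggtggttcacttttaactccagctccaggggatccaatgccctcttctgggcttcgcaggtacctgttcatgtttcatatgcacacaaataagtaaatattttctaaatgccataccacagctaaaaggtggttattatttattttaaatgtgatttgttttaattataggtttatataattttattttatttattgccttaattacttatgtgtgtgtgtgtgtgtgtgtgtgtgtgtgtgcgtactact
Pik3r1, chr13:102464251-102464550, plus strand: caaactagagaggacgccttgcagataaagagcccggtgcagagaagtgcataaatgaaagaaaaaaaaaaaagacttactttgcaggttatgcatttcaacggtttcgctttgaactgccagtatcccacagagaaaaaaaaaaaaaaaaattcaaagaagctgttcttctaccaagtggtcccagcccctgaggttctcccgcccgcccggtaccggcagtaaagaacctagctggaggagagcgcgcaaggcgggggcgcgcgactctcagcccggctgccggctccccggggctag
Igf1r, chr7:75293151-75293450, plus strand: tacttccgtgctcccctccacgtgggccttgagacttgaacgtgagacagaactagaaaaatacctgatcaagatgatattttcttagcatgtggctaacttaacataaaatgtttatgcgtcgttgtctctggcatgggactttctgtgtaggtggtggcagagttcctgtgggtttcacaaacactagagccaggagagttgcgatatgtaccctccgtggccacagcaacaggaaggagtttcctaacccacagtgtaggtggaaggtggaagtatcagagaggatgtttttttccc
Akt2, chr7:28410051-28410350, plus strand: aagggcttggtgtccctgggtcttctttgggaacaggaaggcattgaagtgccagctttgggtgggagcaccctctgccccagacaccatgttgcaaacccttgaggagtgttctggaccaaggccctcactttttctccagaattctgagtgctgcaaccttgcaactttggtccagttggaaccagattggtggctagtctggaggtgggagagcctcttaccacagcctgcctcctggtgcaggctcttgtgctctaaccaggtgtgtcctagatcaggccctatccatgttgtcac

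4 motifs were searched as exact letters on both strands: TTGCNNAA (C/EBP), TGANTCA (AP-1), TGTTTAC (forkhead) and TGACGTCA (cyclic AMP response element). Of the 22367 upstream windows of that length, 11.2%, 7.12%, 3.46% and 2.00% hold them, and of the centres of 12591 H3K27ac stretches gained in the same way across the genome, 16.1%, 12.2%, 4.28% and 0.278%. Among the 10 upstream windows the matches were the 1 in Akt2 and the 1 in Foxo1, and none of the 5 gained stretches shown held a match, which says only that these letters are not in these windows. Upstream windows of the genes differed in how much CpG they held. Irs2 had 47 CpG and a GC content of 80.3%, more CpG than 98.8% of all upstream windows, and Pik3r1, Irs1, Igf1r and Foxo1 had 36, 31, 29 and 22. Insr, Slc2a1 and Akt2 had 15, 12 and 11. Slc2a4 had 11 CpG at 58.7% GC and Igf1 had 5, against a median of 9 CpG and 53.3% GC over all genes.

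In empty vector cells the H3K27ac cover of 7 of the 10 windows changed over 48 h, 5 rising (Insr, Irs2, Pik3r1, Igf1r, Slc2a4) and 2 falling (Igf1, Slc2a1). Over all 17041 genes tested, 25.6% rose and 14.3% fell in the same comparison. All tests of H3K27ac cover are limma fits on log2(cover + 1000 bp) with Benjamini-Hochberg adjustment over all genes tested and a threshold of 0.05. The median log2 difference was 0.48 over the 10 genes and 0.14 over all genes.

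**Figure D1:**
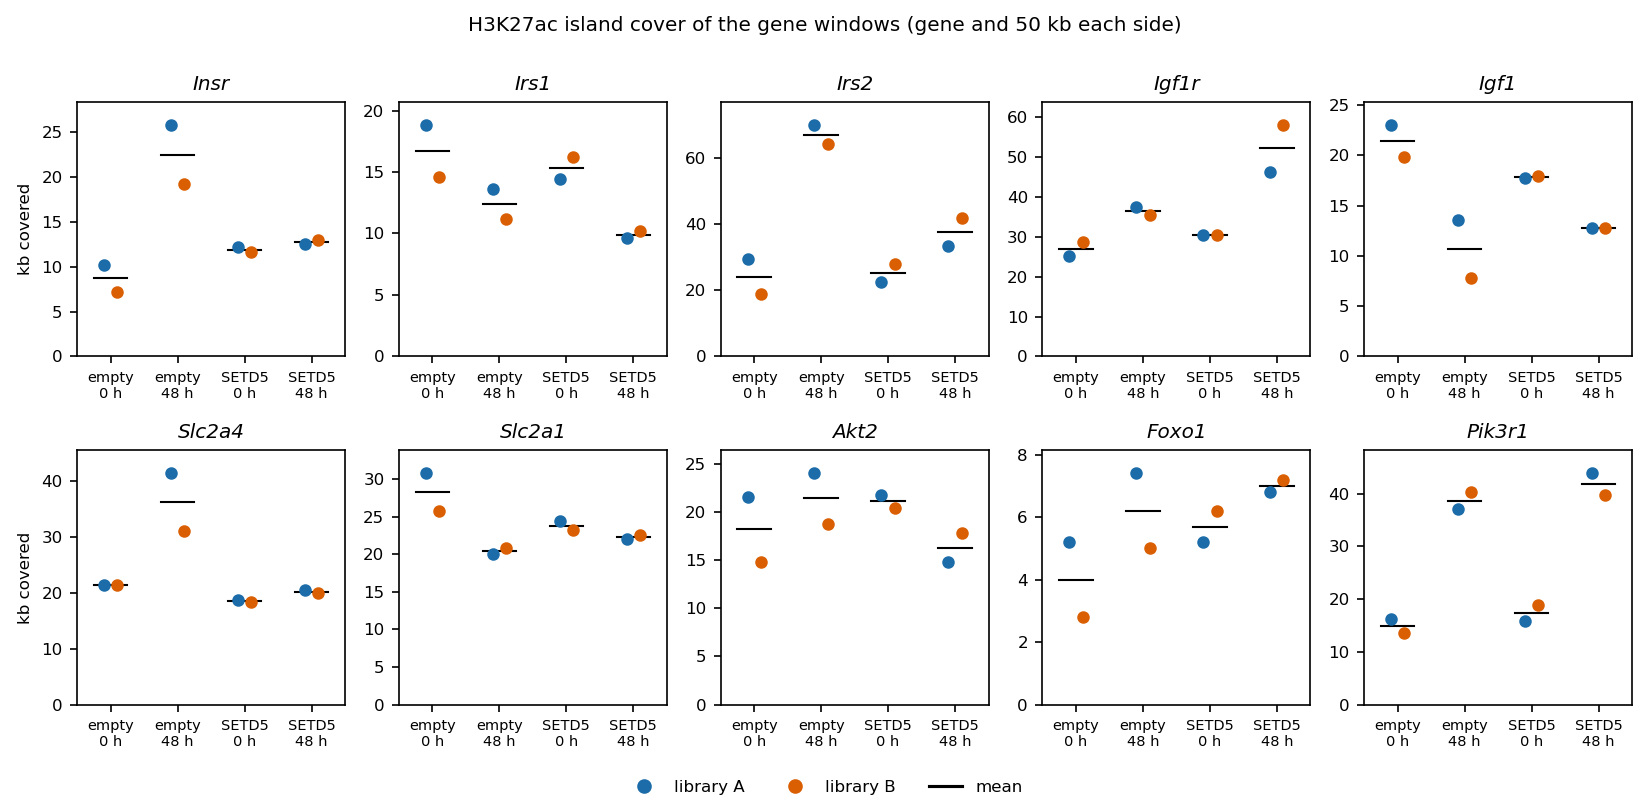
H3K27ac cover of the 10 windows, in kb, for each library of the 4 groups (empty vector and SETD5 cells at 0 and 48 h), with 1 panel per gene; points are single libraries and lines are group means. Irs2, Insr and Slc2a4 stand highest in the 2 empty vector 48 h libraries, whereas Pik3r1 is high in all 4 libraries of 48 h.

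At the receptor genes, Insr cover was 10.2 kb and 7.20 kb (libraries A and B) in empty vector cells at 0 h and 25.8 kb and 19.2 kb at 48 h. In SETD5 cells it was 12.2 kb and 11.6 kb at 0 h and 12.6 kb and 13.0 kb at 48 h. Both empty vector 48 h libraries thus stood above all 6 others. The 48 h difference was 1.28 on the log2 scale (SE 0.19, limma, Benjamini-Hochberg adjusted p = 0.000384) in empty vector cells and 0.10 (adjusted p = 0.763) in SETD5 cells. At 48 h SETD5 cells stood 0.75 below empty vector cells on the log2 scale (difference -0.75, SE 0.19, adjusted p = 0.0228). The difference of the 2 changes was itself past the threshold at Insr (-1.18, SE 0.27, adjusted p = 0.0367), the only one of the 10 genes for which it was on the window cover as defined above, where 1.88% of all genes had a called difference upward and 2.89% downward. The Insr islands gained at 48 h were of low rank in their lists. With only islands at or above each list's median score, Insr cover was 10.2 kb and 7.20 kb at 0 h and 8.20 kb and 10.0 kb at 48 h in empty vector cells, and the differences became 0.07 (adjusted p = 0.825) over time, -0.10 between vectors at 48 h and -0.16 for the difference of changes.

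Around Insr the number of islands went from 3 in each empty vector 0 h library to 7 and 8 at 48 h, and from 4 in each SETD5 0 h library to 6 in each at 48 h. The start-site island, by contrast, was present in all 8 lists and rose in rank in both kinds of cell. The share of islands of a list with a higher score fell from 39.8% and 42.2% to 21.4% and 27.4% in empty vector cells, and from 35.5% and 36.6% to 22.9% and 28.4% in SETD5 cells.

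Igf1r moved in both kinds of cell, and its rise was not called different between them (difference of the 2 changes 0.33, limma adjusted p = 0.381). Its cover was 25.3 kb and 28.8 kb at 0 h and 37.4 kb and 35.4 kb at 48 h with empty vector. With SETD5 it was 30.5 kb and 30.4 kb at 0 h and 46.4 kb and 58.0 kb at 48 h. All 4 libraries of 48 h lay above all 4 of 0 h, and the SETD5 48 h libraries lay highest. The differences were 0.42 (SE 0.14, adjusted p = 0.0326) with empty vector, 0.75 (SE 0.14, adjusted p = 0.00214) with SETD5 and 0.50 (SE 0.14, adjusted p = 0.0312) between vectors at 48 h. The first did not hold with a 100 kb window (-0.04), and the last was 0.37 (adjusted p = 0.106) when each list was limited to an equal number of islands, 0.42 (adjusted p = 0.142) over the gene body, 0.40 (adjusted p = 0.135) with a 10 kb window and 0.45 (adjusted p = 0.0686) without bases of other genes. SETD5 48 h libraries had 15 and 18 islands in the window and empty vector 48 h libraries 11 each.

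Igf1 encodes the growth factor ligand. Its cover fell from 23.0 kb and 19.8 kb to 13.6 kb and 7.80 kb in empty vector cells. In SETD5 cells it was 17.8 kb and 18.0 kb at 0 h and 12.8 kb in both libraries at 48 h. The 4 libraries of 48 h thus lay below the 4 of 0 h. The fall in empty vector cells was past the threshold (-0.98, SE 0.21, limma adjusted p = 0.0038), while SETD5 cells gave -0.45 (adjusted p = 0.141), and the difference between the 2 changes, 0.53, was not past it (adjusted p = 0.365). The fall was -0.66 (adjusted p = 0.0774) over the gene body alone, and it was -1.34 without the empty vector 48 h library A and -0.61 without library B. The Igf1 start-site island lost rank in the same way, from 4.60% and 4.13% of islands scoring higher to 36.9% and 39.3% in empty vector cells and from 4.74% and 4.54% to 10.3% and 13.2% in SETD5 cells.

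Of the docking protein genes, Irs2 had the largest share of its window in H3K27ac islands among the 10 in empty vector cells at 48 h. Its cover was 29.4 kb and 18.8 kb at 0 h and 70.0 kb and 64.2 kb at 48 h in empty vector cells, a mean of 19.8% and then 55.3% of the window. In SETD5 cells it was 22.4 kb and 28.0 kb at 0 h and 33.4 kb and 42.0 kb at 48 h. The 48 h libraries lay above the 0 h libraries in each kind of cell, and the 2 SETD5 48 h libraries lay between the 0 h libraries and the empty vector 48 h libraries. The differences over time were 1.47 (SE 0.20, adjusted p = 0.000212) with empty vector and 0.56 (adjusted p = 0.0597) with SETD5, and the difference of the 2, -0.91, was not past the threshold (adjusted p = 0.102). The rise with SETD5 was called in some other settings. Among them were islands at or above the median score (1.20, adjusted p = 0.00827) and a 100 kb window (0.75, adjusted p = 0.00253). It was not called over the gene body alone (0.53, adjusted p = 0.558). Between vectors at 48 h Irs2 stood at -0.82 (SE 0.20, adjusted p = 0.0193), which did not hold over the gene body alone (-0.57, adjusted p = 0.586) or with a 10 kb window (-0.64, adjusted p = 0.308).

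The Irs2 start site carried an island in all 8 libraries. It measured 7200 bp and 3600 bp at 0 h and 16400 bp and 14800 bp at 48 h in empty vector cells, and 4200 bp and 4800 bp and then 9800 bp and 13400 bp in SETD5 cells. At 48 h only 0.467% and 0.576% of islands scored higher in the empty vector lists and 1.51% and 1.66% in the SETD5 lists. The start-site island thus grew in both kinds of cell, and the gap between them lay mostly in the rest of the window. In all, 23.6 kb of the Irs2 window was gained in this way, the longest gain of the 10, and 49.1% of it was in neither SETD5 48 h list, against 34.9% of the 22.8 Mb gained across the genome.

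**Figure D2:**
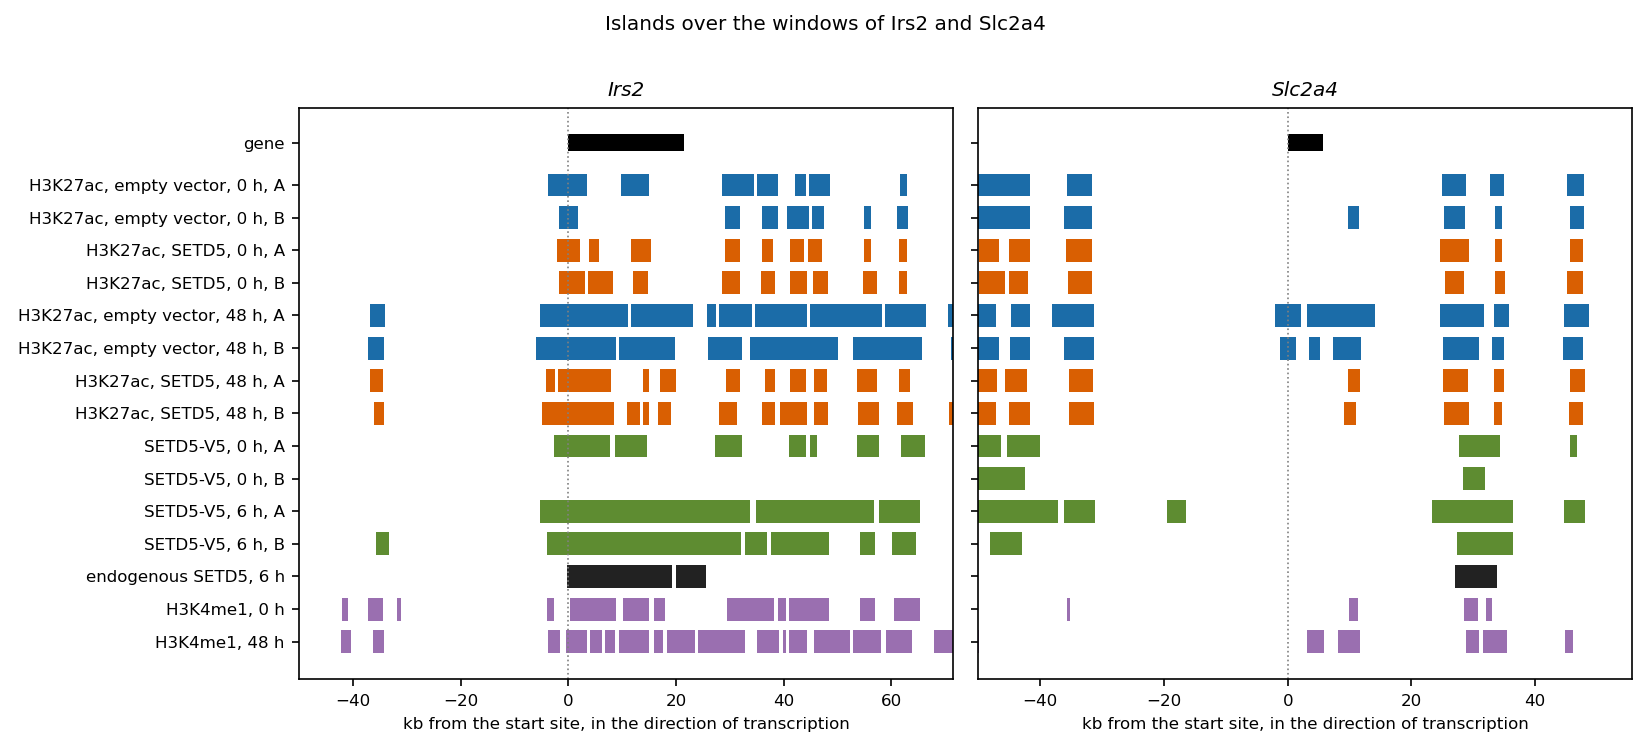
Islands of 15 lists (rows, named by mark, vector, time and library; endogenous SETD5 at 0 h has none) in the Irs2 and Slc2a4 windows, against distance from the annotated start site in kb; each bar is an island, and the gene is the black bar at the top. Long H3K27ac islands lie over Irs2 and downstream of it in the empty vector 48 h rows, and an island over the Slc2a4 start site is present in those rows alone among the H3K27ac rows.

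Irs1 went the other way. Its cover was 18.8 kb and 14.6 kb at 0 h and 13.6 kb and 11.2 kb at 48 h with empty vector, and 14.4 kb and 16.2 kb and then 9.60 kb and 10.2 kb with SETD5. The SETD5 change was past the threshold (-0.58, SE 0.17, adjusted p = 0.0266) and the empty vector change was not (-0.40, adjusted p = 0.0904), but no difference between the 2 changes was called. The start-site island shortened from 12400 bp and 11200 bp to 10800 bp and 3800 bp with empty vector and from 10600 bp and 12400 bp to 2400 bp and 3200 bp with SETD5.

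Pik3r1, the p85α gene, gained H3K27ac in both kinds of cell. Its cover was 16.2 kb and 13.6 kb at 0 h and 37.0 kb and 40.2 kb at 48 h with empty vector. With SETD5 it was 15.8 kb and 18.8 kb at 0 h and 43.8 kb and 39.8 kb at 48 h. Every 48 h library lay above every 0 h library. The differences were 1.32 (SE 0.14, adjusted p = 5.17e-05) and 1.23 (SE 0.14, adjusted p = 0.000155), and the difference of the 2 changes was -0.09. At 48 h the 2 kinds of cell differed by 0.11 (adjusted p = 0.66), with the libraries overlapping. Of the 12.6 kb gained here in empty vector cells, 17.5% was in neither SETD5 48 h list. The start-site island grew from 4600 bp and 4000 bp to 11200 bp and 6800 bp with empty vector and from 4200 bp and 5800 bp to 11800 bp and 7000 bp with SETD5.

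**Figure D3:**
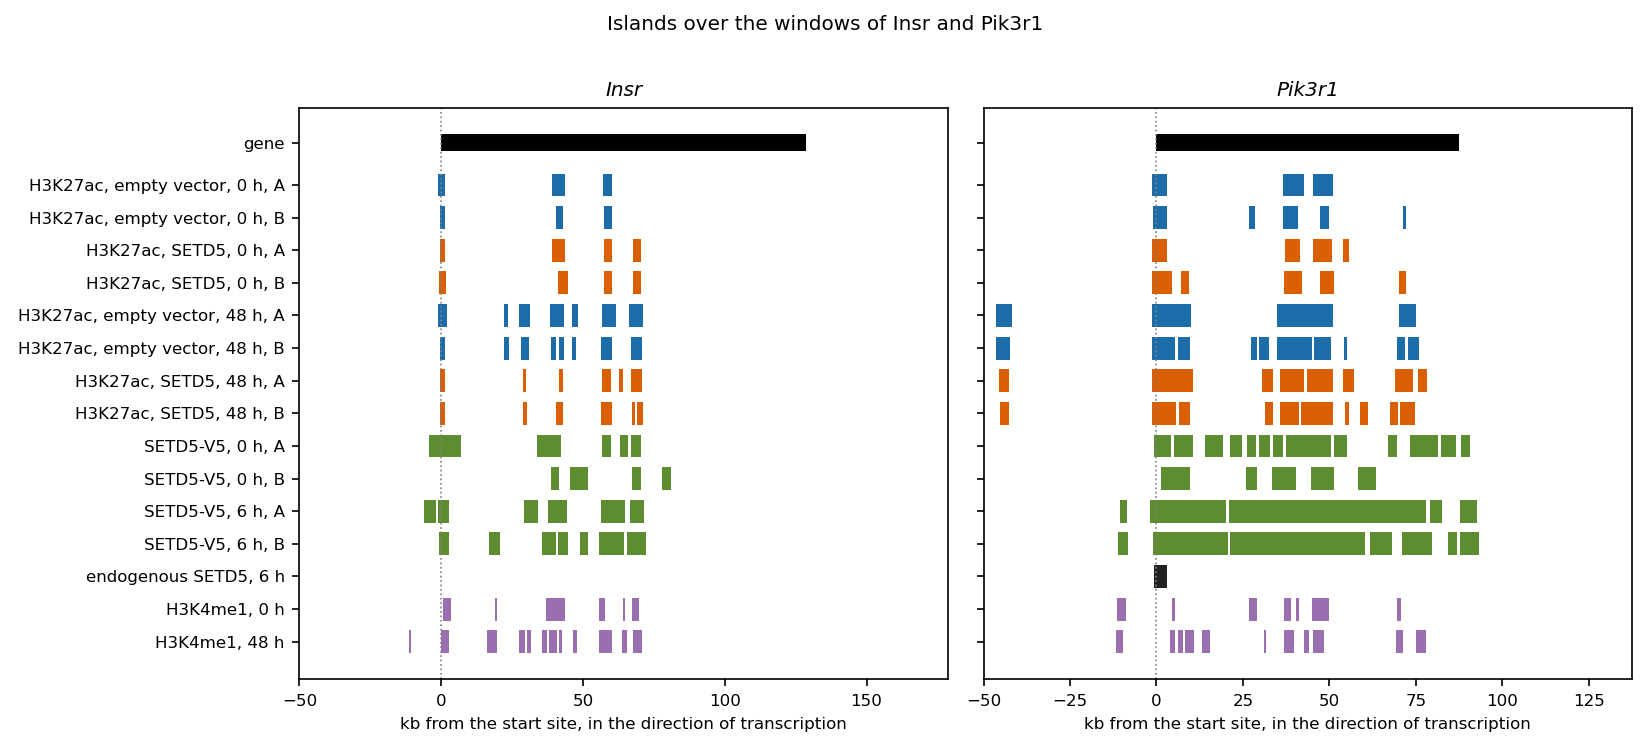
Islands of 15 lists (rows, named by mark, vector, time and library, with endogenous SETD5 at 0 h left out) in the Insr and Pik3r1 windows, against distance from the annotated start site in kb; each bar is an island, and the gene is the black bar at the top. Short intronic H3K27ac islands of Insr are most numerous in the empty vector 48 h rows (7 and 8 islands), while Pik3r1 gains islands at 48 h in both kinds of cell and is overlain by long SETD5-V5 islands at 6 h.

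Downstream in the pathway, Akt2 and Foxo1 passed the test in no H3K27ac comparison on the window cover as defined above. With a 100 kb window Akt2 was called lower over 48 h in SETD5 cells (-0.54, limma adjusted p = 0.0191). The Foxo1 difference over time with empty vector was 0.55, and 0.90 without 0 h library A. Akt2 cover was 21.6 kb and 14.8 kb at 0 h and 24 kb and 18.8 kb at 48 h with empty vector, and 21.8 kb and 20.4 kb and then 14.8 kb and 17.8 kb with SETD5. Foxo1 had the least, with 5.20 kb and 2.80 kb at 0 h and 7.40 kb and 5 kb at 48 h with empty vector, and 5.20 kb and 6.20 kb and then 6.80 kb and 7.20 kb with SETD5. With empty vector the time points overlapped at both genes, and with SETD5 the 48 h libraries lay below those of 0 h at Akt2 and above them at Foxo1. The start sites showed more than the windows did, as a description with no test. The Akt2 start-site island measured 3200 bp in both empty vector 0 h libraries and 9000 bp and 9800 bp in the SETD5 0 h libraries. At Foxo1 the share of islands scoring above the start-site island fell from 22% and 30.7% to 6.78% and 8.25% with empty vector and from 18.7% and 21.0% to 8.02% and 10.0% with SETD5.

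The 2 glucose transporter genes moved in opposite directions in empty vector cells. Slc2a4 cover was 21.3 kb in both libraries at 0 h and 41.3 kb and 31.1 kb at 48 h. In SETD5 cells it was 18.6 kb and 18.4 kb at 0 h and 20.5 kb and 19.9 kb at 48 h. Both empty vector 48 h libraries lay above all 6 others. The differences were 0.72 (SE 0.15, adjusted p = 0.00276) over time with empty vector, 0.12 (adjusted p = 0.612) with SETD5 and -0.80 (SE 0.15, adjusted p = 0.00551) between vectors at 48 h. The difference of the 2 changes, -0.61, was not past the threshold (adjusted p = 0.135). The rise over time with empty vector missed the threshold with a 100 kb window (0.34, adjusted p = 0.0554). With a 10 kb window Slc2a4 was called higher over time in SETD5 cells too. There the difference of the 2 changes was -1.34 (adjusted p = 0.338) and that between vectors at 48 h -2.08 (adjusted p = 0.0232).

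Since 11 other genes lie in that window, the bases that belong to none of them were also taken alone. They held 0.200 kb and 0 kb of H3K27ac at 0 h and 7.60 kb and 4.40 kb at 48 h in empty vector cells, and 0.400 kb and 0 kb and then 0 kb in both libraries in SETD5 cells. On these bases the differences were 2.64 over time with empty vector (SE 0.31, adjusted p = 0.000465), -2.77 between vectors at 48 h (adjusted p = 0.00253) and -2.88 for the difference of the changes (adjusted p = 0.0205). With groups at 0 these sizes depend on the 1000 bp added before the logarithm and are no fold. Within the Slc2a4 gene body itself, H3K27ac islands covered 4.65 kb and 3.09 kb in the empty vector 48 h libraries and nothing in the other 6.

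The Slc2a4 start site had no H3K27ac island in any of the 4 libraries of 0 h. In empty vector cells at 48 h it lay in an island of 4200 bp in library A (chr11:69759601-69763800) and one of 2600 bp in library B (chr11:69760401-69763000), both of low rank, with 62.5% and 78.6% of islands scoring higher. In SETD5 cells at 48 h no island was listed there. An empty vector 48 h island of 11000 bp (chr11:69747601-69758600, library A) also ran across Ybx2 into Slc2a4, where SETD5 cells at 48 h had an island of 2000 bp over Ybx2 only. A list without an island says that the enrichment did not pass the caller's threshold, not that the mark was absent. Across all genes 437 (1.95%) gained a start-site island in both empty vector 48 h lists, and 94 of them (21.5%) had it in neither SETD5 48 h list. Adipoq, an adipocyte marker whose start site carried H3K27ac in empty vector but not SETD5 cells at 48 h, moved in the same way. The adipocyte markers Fabp4, Plin1 and Cidec did not, as their start sites gained an island by 48 h in both kinds of cell.

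Slc2a1 cover fell from 30.8 kb and 25.8 kb to 20 kb and 20.8 kb with empty vector (-0.45, SE 0.13, limma adjusted p = 0.0203). With SETD5 it was 24.4 kb and 23.2 kb at 0 h and 22 kb and 22.6 kb at 48 h (-0.09). The call with empty vector was lost without any 1 of 3 libraries (0 h A, 48 h A or 48 h B), and the same held for Igf1r.

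In SETD5 cells 3 of the 10 windows changed over 48 h, with Pik3r1 and Igf1r rising and Irs1 falling. Over all genes 16.2% rose and 12.9% fell, and the median difference was 0.11 over the 10 genes and 0.00 over all genes. The Irs1 call was lost without any 1 of the 4 SETD5 libraries. Before the cocktail none of the 10 windows differed between SETD5 and empty vector cells, where 3.16% of all genes did (349 higher and 189 lower, or 153 and 225 with equal numbers of islands per list). Insr alone of the 10 had an unadjusted limma p under 0.05, with a log2 difference of 0.43, as did 2729 of the 17041 genes tested.

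At 48 h 4 of the 10 windows differed between SETD5 and empty vector cells, with Irs2, Slc2a4 and Insr lower and Igf1r higher. Over all genes 8.02% were higher and 9.25% lower (1367 and 1577 genes, or 788 and 1834 with equal numbers of islands), and the median difference was -0.09 over the 10 genes and -0.07 over all genes. The remaining 6 genes gave log2 differences of 0.11 (Pik3r1), 0.28 (Igf1), -0.37 (Akt2), -0.29 (Irs1), 0.12 (Slc2a1) and 0.17 (Foxo1). The calls lean on single libraries: Slc2a4 alone stayed past the threshold without empty vector 48 h A, Igf1r and Slc2a4 without SETD5 48 h A, Insr and Slc2a4 without empty vector 48 h B, and none without SETD5 48 h B. Without one or another of these libraries the differences ran from -0.98 to -0.66 at Irs2, from -0.997 to -0.599 at Slc2a4, from -0.96 to -0.55 at Insr and from 0.34 to 0.66 at Igf1r. The difference between the 2 time changes at Insr was lost without any 1 of 6 libraries and kept without empty vector 0 h A or empty vector 48 h B. Without empty vector 0 h A that difference was also past the threshold at Irs2 (-1.22, adjusted p = 0.0308). These comparisons share libraries with each other, the empty vector 48 h pair entering both the time comparison and the vector comparison, so their values are not independent.

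**Figure D4:**
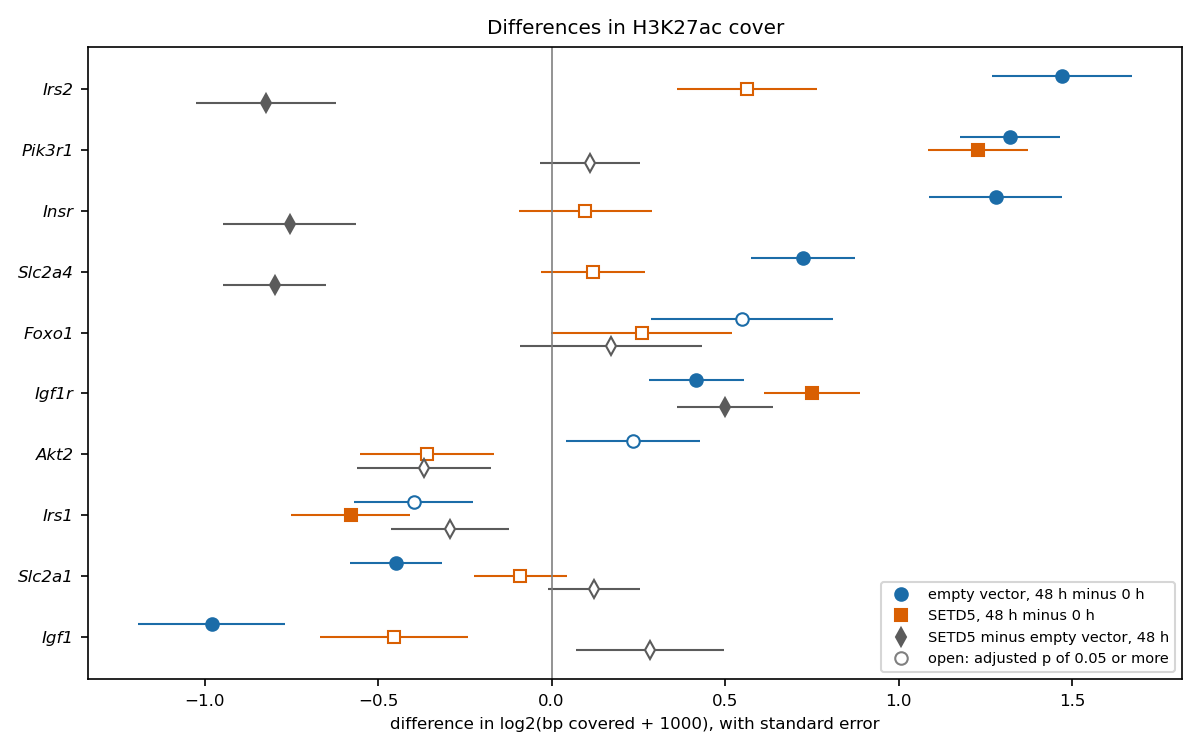
Differences of H3K27ac cover on the log2 scale, with standard errors of the limma fit as bars, for the 10 genes in 3 comparisons (48 h minus 0 h in empty vector cells, 48 h minus 0 h in SETD5 cells, SETD5 minus empty vector at 48 h); filled points have an adjusted p under 0.05. Insr, Irs2 and Slc2a4 are filled above 0 in the first comparison and below 0 in the last, while Pik3r1 is filled above 0 in both time comparisons.

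Counted as islands, 22 of the 64 islands of the 10 windows in the empty vector 48 h list of letter A overlapped no 0 h island of that letter, as did 23 of 67 in letter B (34.4% and 34.3%, against 28.9% and 30.9% of the whole lists). Of these induced islands, 9 and 5 overlapped no SETD5 48 h island of the same letter, 40.9% and 21.7%, against 36.3% and 30.7% of the whole lists. The 2 letters thus lay on either side of the whole-list shares. Measured in bases, the gains absent from both SETD5 48 h lists made up 87.5% of 9.60 kb at Slc2a4, 83.3% of 4.80 kb at Akt2 and 57.1% of 7 kb at Insr, but 11.7% of 12.0 kb at Igf1r. Foxo1 and Slc2a1 gained 1.60 kb and 0.800 kb, none of it absent with SETD5, and Irs1 and Igf1 gained nothing.

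SETD5-V5 islands lay in the windows of 9 genes at 0 h and of all 10 at 6 h, and most grew in the 6 h after the cocktail. At Irs2 cover went from 34.2 kb and 0 kb at 0 h to 68.6 kb and 60.6 kb at 6 h. Pik3r1 had 62.8 kb and 30.0 kb at 0 h and 89.4 kb and 86.4 kb at 6 h. Igf1r went from 9 kb and 0 kb to 102 kb and 47.8 kb. At each of these 3 genes both 6 h libraries lay above both 0 h libraries. The same held for Insr (30.2 kb and 16 kb, then 33.2 kb and 34.2 kb), Igf1 (4.60 kb and 0 kb, then 19.8 kb and 12.8 kb) and Akt2 (0 kb in both, then 10.4 kb and 5.60 kb). In all, 6 of the 10 windows were higher without overlap, as were 62.0% of the 14764 genes tested, so the share is near that of all genes.

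Irs1 was the exception. Its SETD5-V5 cover was 56.2 kb and 38.0 kb at 0 h and 12.2 kb and 13.8 kb at 6 h. Both 6 h libraries lay below both 0 h libraries, which held for 1.42% of genes. Cover overlapped between time points at Slc2a4 (16.5 kb and 11.1 kb, then 37.5 kb and 14.4 kb), Slc2a1 (26.4 kb and 5 kb, then 20.6 kb and 5 kb) and Foxo1 (12.2 kb and 0 kb, then 38.2 kb and 8.20 kb).

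None of the 10 passed the threshold in the limma fit of the 4 SETD5-V5 libraries, in which 7.57% of genes rose. At an unadjusted p under 0.05 there were 3, Irs1 (-1.76, adjusted p = 0.118), Akt2 (3.12, adjusted p = 0.0535) and Igf1r (4.48, adjusted p = 0.157). Over all genes 4110 of 14764 had such a p, so the 3 do not stand out. This fit is weak: the lists covered 85.6 Mb and 35.3 Mb at 0 h and 196 Mb and 148 Mb at 6 h, and the median log2 difference was 1.81 over all genes and 1.69 over the 10. Calls over all genes split into 1117 higher and 6 lower as deposited, and into 464 higher and 596 lower once cover was scaled to the total length of each list, which moved the median to 0.175. On that scale the difference was below 0 at Insr (-1.04), Slc2a4 (-0.89) and Pik3r1 (-0.63), so for these 3 genes the direction depends on the scaling. Also on that scale Irs1 was called lower (-3.39, adjusted p = 3.67e-07) and Igf1r higher (2.85, adjusted p = 0.00748). Without the 0 h library of letter A, which leaves 1 library at 0 h, the differences ran from -1.48 at Irs1 to 6.15 at Igf1r.

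**Figure D5:**
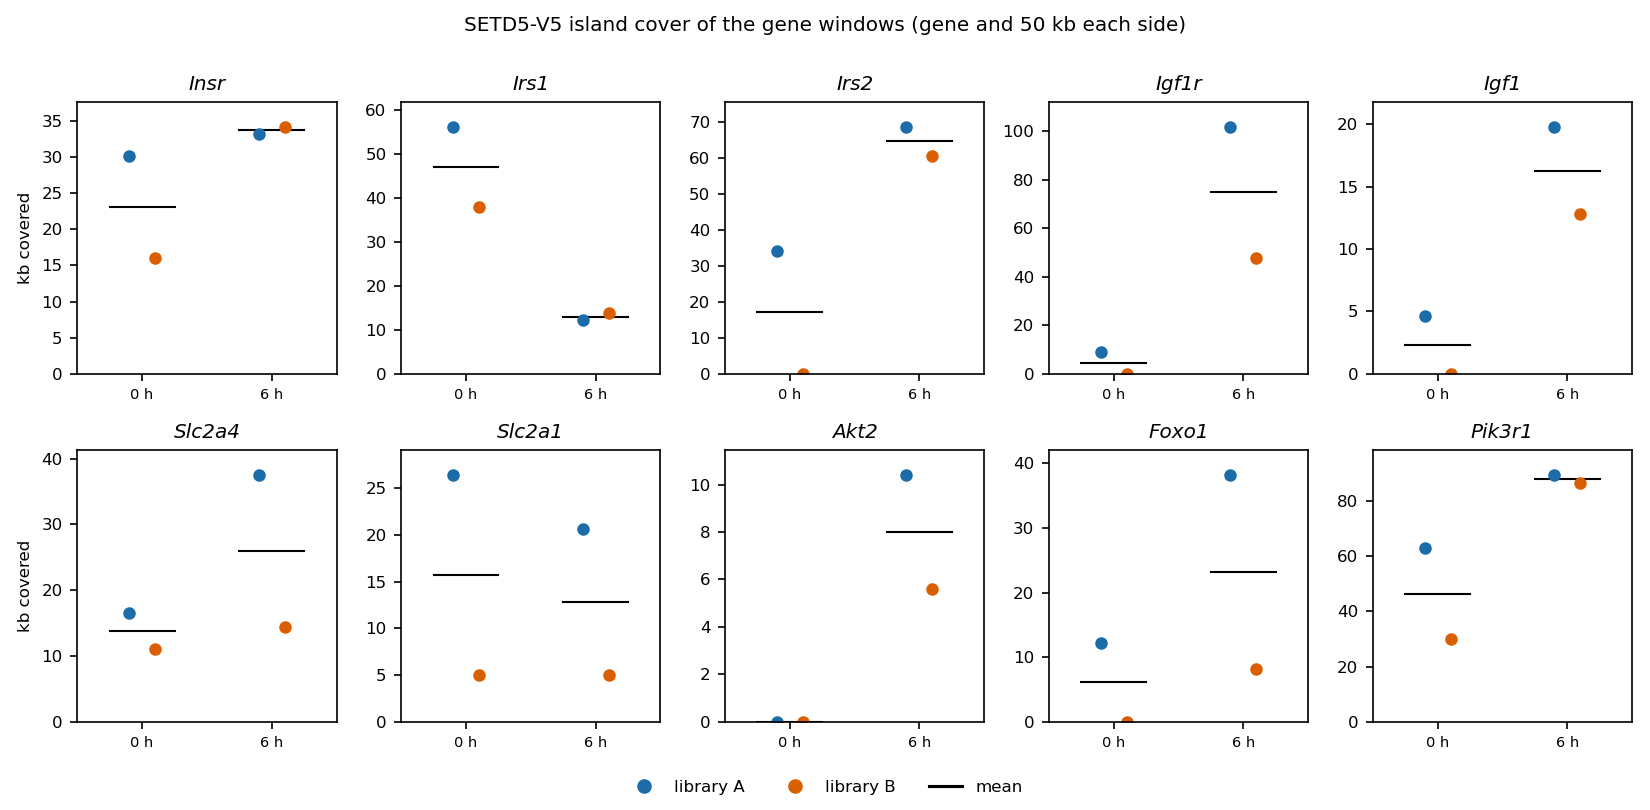
SETD5-V5 cover of the 10 windows, in kb, for each of the 2 libraries at 0 h and the 2 at 6 h; points are single libraries and lines are group means. Pik3r1, Irs2 and Igf1r reach the highest values at 6 h and Irs1 alone has both 6 h libraries below both 0 h libraries.

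SETD5-V5 islands overlapped the start sites (within 1 kb) of 7 of the 10 genes in library A and of none in library B at 0 h, and of 9 and 7 at 6 h. Over all genes the shares were 17.7% and 5.16% at 0 h and 39.8% and 22.2% at 6 h. Slc2a4 had none in any of the 4. At Irs2 the start-site island measured 10400 bp in 0 h library A and 39000 bp and 36000 bp at 6 h, with 0.602% and 0.929% of islands scoring higher. At Pik3r1 it measured 22000 bp and 21600 bp at 6 h. Among the H3K27ac bases gained in empty vector cells at 48 h, those covered in both SETD5-V5 6 h lists made up 66.7% at Pik3r1, 55.0% at Irs2, 45.0% at Igf1r, 25.7% at Insr, 16.7% at Slc2a4 and 0% at Akt2, against 33.5% across the genome. Pik3r1 and Irs2, with the highest shares, thus differed in how much of the gain was absent from SETD5 cells at 48 h (17.5% and 49.1%).

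Endogenous SETD5, in 1 library per time and so without a replicate check, had no island in any of the 10 windows at 0 h. At 6 h it covered 25.2 kb at Irs2, 6.80 kb at Slc2a4 and 3.60 kb at Pik3r1 and nothing at the other 7. These 3, but not the other 7, were among the 4898 genes with a mean cover of at least 1000 bp. Of those genes 67.3% were past the 2-fold size rule on cover + 1000 bp upward and 11.4% downward. Without cover at 0 h the 3 genes passed that filter only through 6 h, so that they were past the rule upward was fixed in advance. The islands at Irs2 and Pik3r1 overlapped the start sites, at Irs2 with lengths of 19600 bp and 5600 bp in the window. The island in the Slc2a4 window (chr11:69727801-69734600) lay over Gps2 and Eif5a, 27.1 kb downstream of the Slc2a4 start, so it is not placed at Slc2a4 by its position.

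H3K4me1, also in 1 library per time, was past the 2-fold rule at 3 of the 10 windows, where 14.4% of the 15428 genes with cover were past it upward and 7.92% downward. Slc2a4 went from 5.20 kb at 0 h to 13.7 kb at 48 h, Irs1 from 8 kb to 3.40 kb and Igf1 from 15.4 kb to 6.80 kb. With islands at or above the median score Irs1 was no longer past the rule and Pik3r1 was, and over the gene body alone Igf1 was no longer past it. The directions above are those of H3K27ac in empty vector cells, given side by side with no test. The other 7 stayed within 2-fold: Irs2 from 47.0 kb to 63.6 kb, Insr from 15.8 kb to 28.0 kb, Foxo1 from 13.8 kb to 24.6 kb, Pik3r1 from 14.6 kb to 23.6 kb, Igf1r from 18.5 kb to 17.0 kb, Slc2a1 from 28.2 kb to 28.8 kb and Akt2 from 15.8 kb to 14.8 kb. Irs2 thus had the longest H3K4me1 cover before differentiation. Of the H3K27ac bases it gained by 48 h, 44.9% already lay in H3K4me1 islands at 0 h, against 75% of the 1.60 kb gained at Foxo1, 25% of the 0.800 kb at Slc2a1, 17.1% at Insr, 14.6% at Slc2a4, 6.35% at Pik3r1, 5% at Igf1r, 0% at Akt2 and 23.1% across the genome.

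Among 67 further genes of the pathway, 66 could be tested for H3K27ac. In empty vector cells 21 rose and 8 fell over 48 h, where 25.6% and 14.3% of all genes did. Rheb, the GTPase that activates mTORC1, went from 2.56 kb in both 0 h libraries to 12.8 kb and 14.2 kb (log2 difference 2.02). Igfbp2 and Igfbp5, neighbouring genes for binding proteins of the insulin-like growth factors, had no island in any 0 h library and 9.80 kb and 8.80 kb at 48 h. Their windows share 94.5 kb, so they are not separate observations, although both are among the 21. The largest falls were at Pik3cb (-1.81), a catalytic subunit of phosphoinositide 3-kinase, Igf2 (-1.51) and Gab1 (-1.26), a docking protein.

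In SETD5 cells 10 of the 66 rose and 9 fell over 48 h, against 16.2% and 12.9% of all genes, with Pik3cb going from 13.6 kb and 15.4 kb to 0.800 kb and 1.00 kb (-3.03). Before the cocktail, where 3.16% of all genes differed in either direction, 4 were higher with SETD5 and none lower, among them Pik3cb (1.64), Rheb (1.16) and Slc2a13 (1.16), a myo-inositol transporter. At 48 h 2 were higher with SETD5 and 8 lower, against 8.02% and 9.25% of all genes. Slc2a13 stood at 14.0 kb and 12.0 kb with empty vector and 41.8 kb and 38.8 kb with SETD5 (1.56), and Rab10, a GTPase of GLUT4 vesicles, at 0.81. Igfbp3, another binding protein, stood at 23.0 kb and 27.4 kb with empty vector and 4.60 kb and 6.00 kb with SETD5 (-2.06). Sh2b2, an adaptor of the insulin receptor, stood at 23.0 kb and 18.2 kb and at 7.20 kb and 9.40 kb (-1.22), and Tsc1, an inhibitor of Rheb, at -1.28. The difference of the 2 time changes was called downward at 6 and upward at none, against 2.89% and 1.88% of all genes, among them Rheb (-1.62) and Igfbp3 (-1.42). Of the 60 tested for SETD5-V5, where 7.57% of all genes rose, 3 rose by 6 h: Tbc1d4 (4.32), a regulator of GLUT4 vesicles, Igfbp3 (3.34) and Enpp1 (3.10).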

How the data were processed

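ChIP-seq islands of 16 libraries were analysed. Per the study's methods the authors aligned the leading 36 bases of reads on mm9 (ELAND or Bowtie2) and called islands per library with SICER, using 200 bp windows, an E-value of 100 and a gap of 400 bp (H3K27ac, H3K4me1) or 600 bp (SETD5). An input from earlier work is named for genome tracks, but none for the island calls. The deposited score of each island served only for ranks and the median filter. Total reads per library are listed in the study's supplement but not used here: the files hold no reads per island, so no counting error is given. The labels' processing notes name Bowtie2, deepTools and SICER.

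Genes were taken from GENCODE vM1 on NCBIM37 (mm9), and every value was computed from island intervals with Python 3.11.15 (pandas 2.3.3, pysam 0.24.0). Genes with a mean cover of at least 1000 bp were tested with limma 3.58.1 in R 4.3.3 (moderated with trend and robust options), 8 H3K27ac libraries in 1 fit and 4 SETD5-V5 libraries in another, on log2(cover + 1000 bp), with Benjamini-Hochberg adjustment. Marks with 1 library per time were described with a 2-fold rule. All 10 genes are accounted for, and of the 67 others those called, up to 3 per direction by size, are named, except 1 that is not reported here. In simulated H3K27ac data 33.5% of planted log2 changes of 1 and 92.5% of those of 2 were recovered, and in SETD5-V5 data 0.0% of either. Changes were planted in a small share of genes, whereas many genes changed in the data. The simulated shares thus do not give the power of the fits reported here. Across genes, deviations from group means of libraries of the same letter were nearly uncorrelated (from -0.031 to 0.119 for H3K27ac and 0.0149 for SETD5-V5). This measure cannot show a shift shared by all genes of a letter, and the SETD5-V5 lists of letter A covered more at both times. The genes and lists follow rules without measured values, but were proposed with earlier results of these data known. Sequences were read from mm9.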

Additional observations from a re-analysis of the deposited data

Results flagged for a closer look

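On window cover as reported, Insr was the only one of the 10 genes whose 48 h change of H3K27ac cover differed between the 2 kinds of cell by a test of that difference: SETD5 minus empty vector gave -1.18 on the log2 scale (SE 0.27, limma, Benjamini-Hochberg adjusted p = 0.0367). Cover rose in empty vector cells and lay between 11.6 kb and 13.0 kb in all 4 SETD5 libraries. The value rests on islands of low score and its call was lost without any 1 of 6 of the 8 libraries, while its size stayed between -1.41 and -0.96. Scaled to the total length of each list, Irs2 also passed the threshold (-0.87, adjusted p = 0.0194), and without bases of other genes Slc2a4 did (-2.88, adjusted p = 0.0205) and Insr did not (adjusted p = 0.0595). On those bases Slc2a4 passed the cover filter only through the empty vector 48 h libraries, so its direction was fixed in advance and its value is no separate support.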

How the results depend on the processing

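Of the 7 genes called over 48 h in empty vector cells, the gene body alone gave 4. Slc2a4 had too little mean cover over its gene body to be tested there, in this and the other H3K27ac comparisons, so 9 of the 10 genes were tested. The SETD5 time comparison gave 5 with a 100 kb window (against 3), the vector comparison at 48 h 1 with the gene body and 2 with a 10 kb window (against 4), and the difference of changes 0 with islands at or above the median score, with the gene body and with a 10 kb window and 2 when scaled to total length (against 1). SETD5-V5 calls went from 0 to 1 with the median score, with a 200 bp pseudocount or without bases of other genes, and to 2 when scaled (Irs1, Igf1r) or with the replicate block (Akt2, adjusted p = 0.0156, and Igf1r, 0.0163). Leaving out 1 library gave 5 to 8, 2 to 4, 0 to 4, 0 to 2 and 1 to 7 genes in these 5 comparisons and 0 at 0 h.

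Over all genes, calls over time were 6801 with empty vector (gene body 2754, 10 kb 4155) and 4950 with SETD5 (2093, 3044; leaving out 1 library 3072 to 5263). Between vectors they were 538 at 0 h (scaled 1011, gene body 193, 10 kb 283, 100 kb 853; leaving out 1 library 135 to 573) and 2944 at 48 h (971, 1432; 1075 to 3106), and 814 for the difference of changes (scaled 1497, gene body 233, 10 kb 339, 100 kb 1245; 115 to 768). For SETD5-V5 they were 1123 (median score 1826, 200 bp 2694, without bases of other genes 1841, replicate block 3078, leaving out 1 library 1864 to 9077, and 0 with equal numbers, a 5000 bp pseudocount or no filter). The pairing by letter changed no call of the 10 genes in H3K27ac.

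Induced islands of the 10 windows were 11 (A) and 13 (B) at the median score, and those absent with SETD5 16 and 8 with 50% overlap and 4 (A) at the median score. Start sites with H3K4me1 at 0 h went from 4 to 2 for the start site alone or the median score, and with endogenous SETD5 at 6 h from 2 to 1 at the median score.

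Reversed directions were: with empty vector over time, gene body Slc2a1 0.0016 and Foxo1 -0.051, 100 kb Igf1r -0.036 and Foxo1 -0.082; with SETD5 over time, Insr -0.094 and -0.12 and Slc2a1 0.23 and 0.0070 (median score, equal numbers), Slc2a1 0.46 and Foxo1 -0.022 (gene body), Slc2a1 0.11 (10 kb), Foxo1 -0.031 (median score) and Slc2a4 -0.24 (without bases of other genes). At 0 h they were Irs2 -0.21, -0.020 and -0.062 (median score, equal numbers, 100 kb), Irs1 0.070 and Foxo1 -0.092 (100 kb) and Slc2a4 0.11 (without bases of other genes). At 48 h they were Foxo1 -0.54 (median score) and Pik3r1 -0.028 (equal numbers), and for the difference of changes Foxo1 0.029 (gene body) and 0.21 (100 kb). For SETD5-V5 they were Slc2a1 0.96 (median score), Insr -0.50, Igf1 -0.026 and Foxo1 -0.030 (equal numbers) and Insr -1.04, Slc2a4 -0.89 and Pik3r1 -0.63 (scaled). Leaving out 1 library also turned Akt2 (empty vector over time, -0.023 to 0.49), Irs1 (-0.28 to 0.061), Irs2 (-0.22 to 0.40) and Akt2 (-0.033 to 0.48) at 0 h, Igf1 (-0.081 to 0.65) and Foxo1 (-0.071 to 0.41) at 48 h, Foxo1 (-0.64 to 0.064) and Pik3r1 (-0.21 to 0.027) in the difference of changes, and Slc2a1 (-1.27 to 0.92) in SETD5-V5. Apart from Igf1r and Slc2a1 over time in empty vector cells, none of the reversed values was called as reported. The cause was not tested. Cover comes without reads per island, and weak marks below the caller's threshold could not be seen, and with 2 libraries per group 1 library can decide a call.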
